A study of Mus musculus with 6 samples.

Results

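The cytosolic ribosomal protein genes were taken from a table of 55291 mouse gene symbols as every Rpl or Rps name with a number, together with Rpsa, Rplp0, Rplp1 and Rplp2, and without names ending in -ps. This gave 90 genes, 54 of them named for the large subunit and 36 for the small subunit. In the GENCODE M21 annotation 84 are protein coding and 6 are processed pseudogenes: Rps4l, Rps12l1, Rpl32l, Rpl6l, Rps3a2 and Rps3a3. A filter on low counts kept 89 of the 90. The member it removed, Rpl10l, a testis paralogue of Rpl10, had 0 counts in all 6 libraries, which allows at most 3 counts, or between 0.0820 and 0.150 CPM (counts scaled to the library size), in each.

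The tumours came from CT2A, a mouse glioma cell line, and the tissue entry of the labels places them under the skin, while another entry gives the source as brain; the tissue entry was followed. Libraries came from 3 tumours labelled Siglece KO and 3 labelled WT, and the design text places the genotype in the mouse. Siglece encodes a receptor of mouse myeloid cells that binds sialic acid. Per the labels' protocols, 5000 to 20000 cells were taken per sample for Smart-seq2, which copies full-length mRNA and keeps no record of its strand. All 6 libraries share the tumour line. The sex, age and strain of the mice, the KO allele and any sorting step are not stated in the sources used here. Whether each library stands for its own mouse is not stated, so p-values measure the spread between these libraries, which may be technical.

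A ribosome joins a small subunit, which reads the mRNA, to a large subunit, which forms the peptide bond. Each subunit is built from ribosomal RNA and many small proteins that are needed in nearly equal amounts. The mRNAs of these proteins are short and abundant and start with a run of pyrimidines, the 5′ terminal oligopyrimidine (TOP) motif, through which mTOR and Larp1 control their translation. Some subunits have a paralogue with its own tissue pattern, and the genome carries many intronless copies of their mRNAs.

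Library totals were 30716367, 32162184 and 24369359 counts in KO tumours 1 to 3, and 40574093, 31062215 and 29673568 counts in WT tumours 1 to 3. The targeted gene was at 0, 8 and 0 counts in KO tumours, against 74, 99 and 64 counts in WT tumours. Of 8 glioma and neural markers, 7 had counts in every library, and Gfap was at 0 in KO 3. Their summed level was 1761, 3909 and 2012 CPM in KO tumours, against 6294, 4969 and 4679 CPM in WT tumours. Vim made up most of this sum in every library, so the sum mainly follows that gene. Of these 8 markers 0 passed the test in either direction, beside 11.2% of all tested genes called higher in KO and 0.226% called lower. In Nes, Sox2, Gfap, Olig2, S100b and Vim every KO library was below every WT library, as in 19.5% of all tested genes. In Fabp7 and Cd44 the groups overlapped. Summed markers of leukocytes were at 2450, 820 and 2225 CPM in KO tumours, against 296, 387 and 310 CPM in WT tumours, and 7 of the 8 passed the test as higher. For fibroblasts the sums were 38635, 12358 and 27130 CPM in KO tumours, against 2279, 2945 and 3643 CPM in WT tumours, and all 7 markers passed as higher. All 4 endothelial markers passed as higher too. These counts of markers called higher stand beside the same 11.2% of all tested genes. The share of counts in mitochondrially encoded genes was 1.92%, 2.11% and 4.40% in KO tumours, against 0.717%, 1.13% and 1.11% in WT tumours. In such bulk samples, fewer cells of a type and less RNA per cell cannot be told apart. The part of cell makeup and RNA quality in the results below was not tested.

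Ribosomal protein mRNA made up a smaller part of the KO libraries, and 1 WT library held far more of it than any other. The members took 3.57%, 5.57% and 6.05% of all counts in KO tumours 1 to 3. In WT tumours 1 to 3 they took 13.5%, 6.52% and 6.57%. Every KO library was below every WT library, but KO 3 lay much closer to WT 2 and WT 3 than those lay to WT 1. The mean share was 5.06% ± 1.32 in KO tumours and 8.87% ± 4.02 in WT tumours (SD, n = 3 each). Without WT 1 the KO minus WT difference of the share was -1.48 percentage points, against -3.80 with it.

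**Figure D1:**
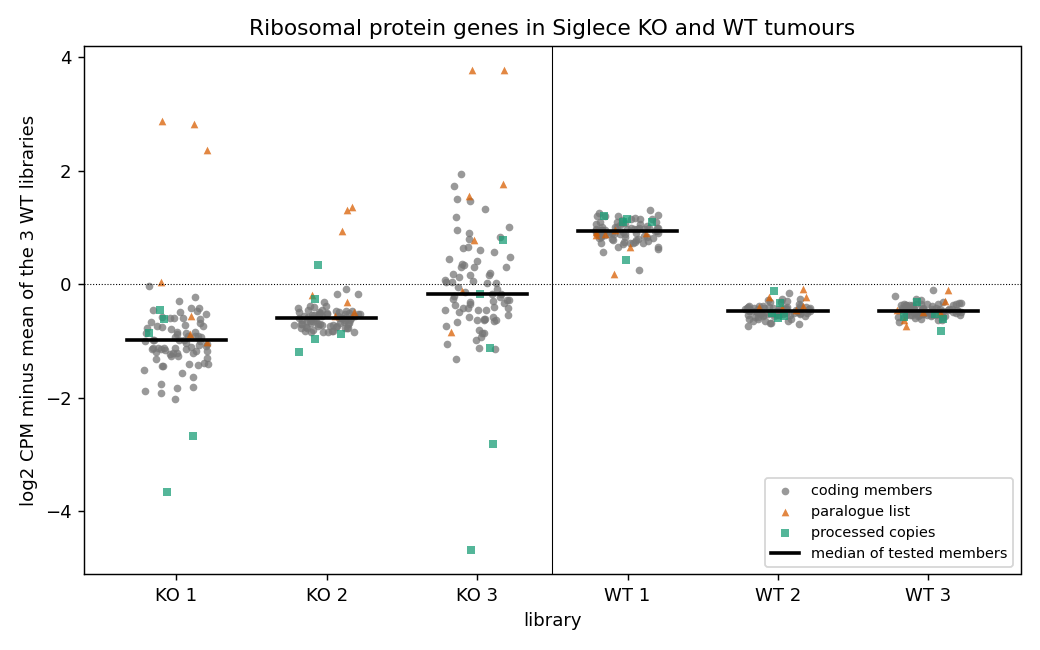
Each point is 1 of the 89 tested ribosomal protein genes in 1 library, as log2 CPM minus the mean of the 3 WT libraries (y axis), with KO libraries left of WT libraries and black bars for the medians. The medians lie at -0.99, -0.59 and -0.16 in KO tumours and at 0.94, -0.46 and -0.47 in WT tumours, and the points are most spread in KO 3.

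Taken gene by gene on a log2 scale, with TMM-scaled library sizes, the median member differed from the WT mean by -0.99, -0.59 and -0.16 in KO tumours, against 0.94, -0.46 and -0.47 in WT tumours. Both subunits gave nearly the same order of libraries. Coding large-subunit genes had medians of -0.996, -0.59 and -0.13 in KO tumours, against 0.90, -0.47 and -0.45 in WT tumours. Coding small-subunit genes had medians of -1.08, -0.64 and -0.32 in KO tumours, against 0.97, -0.47 and -0.48 in WT tumours. The median of all tested genes was within 0.036 of the WT mean in each library.

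WT 1 stood apart from its group across the whole family. All 89 tested members were higher there than in both WT 2 and WT 3, by a median of 1.41 on the log2 scale. Over all tested genes 46.9% were higher there than in both, with a median difference of 0.05. The excess ran from 0.27 for Rpl7l1, a nucleolar relative of Rpl7 that takes part in building the large subunit, and 0.39 for Rpl15 to 1.88 for Rplp2 and 1.96 for Rps21. WT 2 and WT 3 differed by a median of 0.07 in either direction. WT 1 also stood apart in the share of counts in Malat1, a nuclear RNA, which was 0.0357%, 0.0367% and 0.0255% in KO tumours, against 0.0202%, 0.0783% and 0.0901% in WT tumours, and its part in the excess was not tested. The SD over the 3 WT libraries had a median of 0.82 over members and 0.34 over all tested genes.

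Set against the mean of WT 2 and WT 3 alone, the KO tumours did not share a direction. In KO 1 77 of the 89 tested members were lower, with a median of -0.53, and in KO 2 72 were lower, with a median of -0.15. In KO 3 59 were higher, with a median of 0.28.

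In the test of KO against WT over all genes, 1 member passed as higher and 0 as lower. The quasi-likelihood test of edgeR, with p-values adjusted by Benjamini-Hochberg over 18621 genes at a threshold of 0.05, called 11.2% of all tested genes higher in KO and 0.226% lower. The member that rose was Rps4l. Of the 89 members 78 had a log2 fold change below 0, and the median was -0.66 with quartiles of -0.87 and -0.31, beside -0.05 over all tested genes. That median was -0.11 without WT 1 and -1.01 without KO 3. At an unadjusted p under 0.05 there were 13 members, 10 of them lower in KO, and the smallest adjusted p among the lower ones in edgeR was 0.103, for Rps3a3.

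The libraries did not overlap for some members. All KO libraries were below all WT libraries in 30 members, or 33.7%, beside 19.5% of all tested genes. All KO libraries were above all WT libraries in 3 members, or 3.37%, beside 24.6% of all tested genes. Those 3 were Rps4l, Rpl39l and Rpl3l.

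The count of lower members depended on the test. DESeq2 called 11 members lower in KO, beside 6.68% of all tested genes: Rps3a2, Rps3a3, Rps20, Rps4x, Rps12, Rpl37, Rpl30, Rps26, Rpl10, Rpl23a and Rps2. It called Rps4l, Rpl3l and Rpl39l higher, beside 17.5% of all tested genes. With KO 2 left out, edgeR called 5 members lower, Rps3a2, Rps3a3, Rps4x, Rpl37 and Rpl7l1, beside 18.5% of all tested genes, and called Rps4l, Rpl3l and Rpl39l higher, beside 22.7%. Without the filter on low counts, edgeR called Rps3a2 and Rps3a3 lower, beside 1.44% of genes, and Rps4l and Rpl3l higher, beside 8.71%. With limma-voom 0 members passed in either direction, beside 5.31% of all tested genes called higher and 0.166% called lower.

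Among the core of the ribosome, the stalk of the large subunit recruits the translation factors that bind GTP. Rplp0, the base of the stalk, was at 1263, 1981 and 2236 CPM in KO tumours, against 4960, 2281 and 2339 CPM in WT tumours. Rplp1, which binds Rplp0 as a dimer with Rplp2, was at 1011, 987 and 2412 CPM in KO tumours, against 3296, 1056 and 1042 CPM in WT tumours. Rplp2 was at 428, 561 and 1508 CPM in KO tumours, against 2016, 565 and 533 CPM in WT tumours. The groups of Rplp0 did not overlap, while KO 3 exceeded WT 2 and WT 3 for both Rplp1 and Rplp2. Log2 fold changes were -0.81 ± 0.48 (SE) for Rplp0, -0.29 ± 0.61 for Rplp1 and -0.32 ± 0.69 for Rplp2, and none passed the edgeR test, with adjusted p of 0.270, 0.757 and 0.764. Without WT 1 the log2 fold changes of Rplp1 and Rplp2 were 0.47 and 0.58.

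Rpsa, a small-subunit protein also known as the laminin receptor precursor, was at 968, 1060 and 1939 CPM in KO tumours, against 3128, 1141 and 1066 CPM in WT tumours. KO 3 lay above WT 2 and WT 3, so the groups overlapped. Its log2 fold change was -0.43 ± 0.55 with an edgeR adjusted p of 0.601, and 0.24 without WT 1.

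Levels per kilobase of merged exons were highest for Rplp1, at 2946 CPM per kb in KO tumours and 3603 CPM per kb in WT tumours. Next in WT came Rps15, of the head of the small subunit, at 1248 CPM per kb in KO tumours and 1955 CPM per kb in WT tumours. Rpl41, which encodes a very short peptide of the large subunit, was at 1199 CPM per kb in KO tumours and 1927 CPM per kb in WT tumours. These neighbours did not differ beyond the spread between WT libraries. Merged exon length counts rare long isoforms, and per kilobase of coding sequence, a measure added after the values were seen, Rpl41 was highest, at 18678 CPM per kb in KO tumours and 30003 CPM per kb in WT tumours. Counts cover untranslated bases too. The coding sequence of Rpl41 is 75 bases in a transcript of 437 bases, so this measure favours it. The tested coding member with the lowest level on both scales was Rpl3l.

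To ask which subunits departed from the family, each library was scaled by its median member, so that a value of 0 means the same change as the family. On this scale the median SD over the WT libraries was 0.11 and that over the KO libraries 0.23. The core set of 82 tested members, without the paralogues, lay within 0.5 log2 units of the WT mean for 62 members in KO 1, 79 in KO 2 and 48 in KO 3, and for 81 in all 3 WT libraries. The interquartile range over the core set was 0.51, 0.22 and 0.90 log2 units in KO tumours, against 0.24, 0.12 and 0.15 log2 units in WT tumours. In these ranges and counts the WT libraries are set against a mean they belong to, which makes them closer to it by construction. The SDs were taken within each group. By these ranges KO 3 was the library where the subunits were least even, and KO 2 was close to the WT libraries. The family median of KO 3 was nearest to the mean of the 3 WT libraries, WT 1 included. Against WT 2 and WT 3 alone KO 2 was nearest, at -0.15, and KO 3 was at 0.28.

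**Figure D2:**
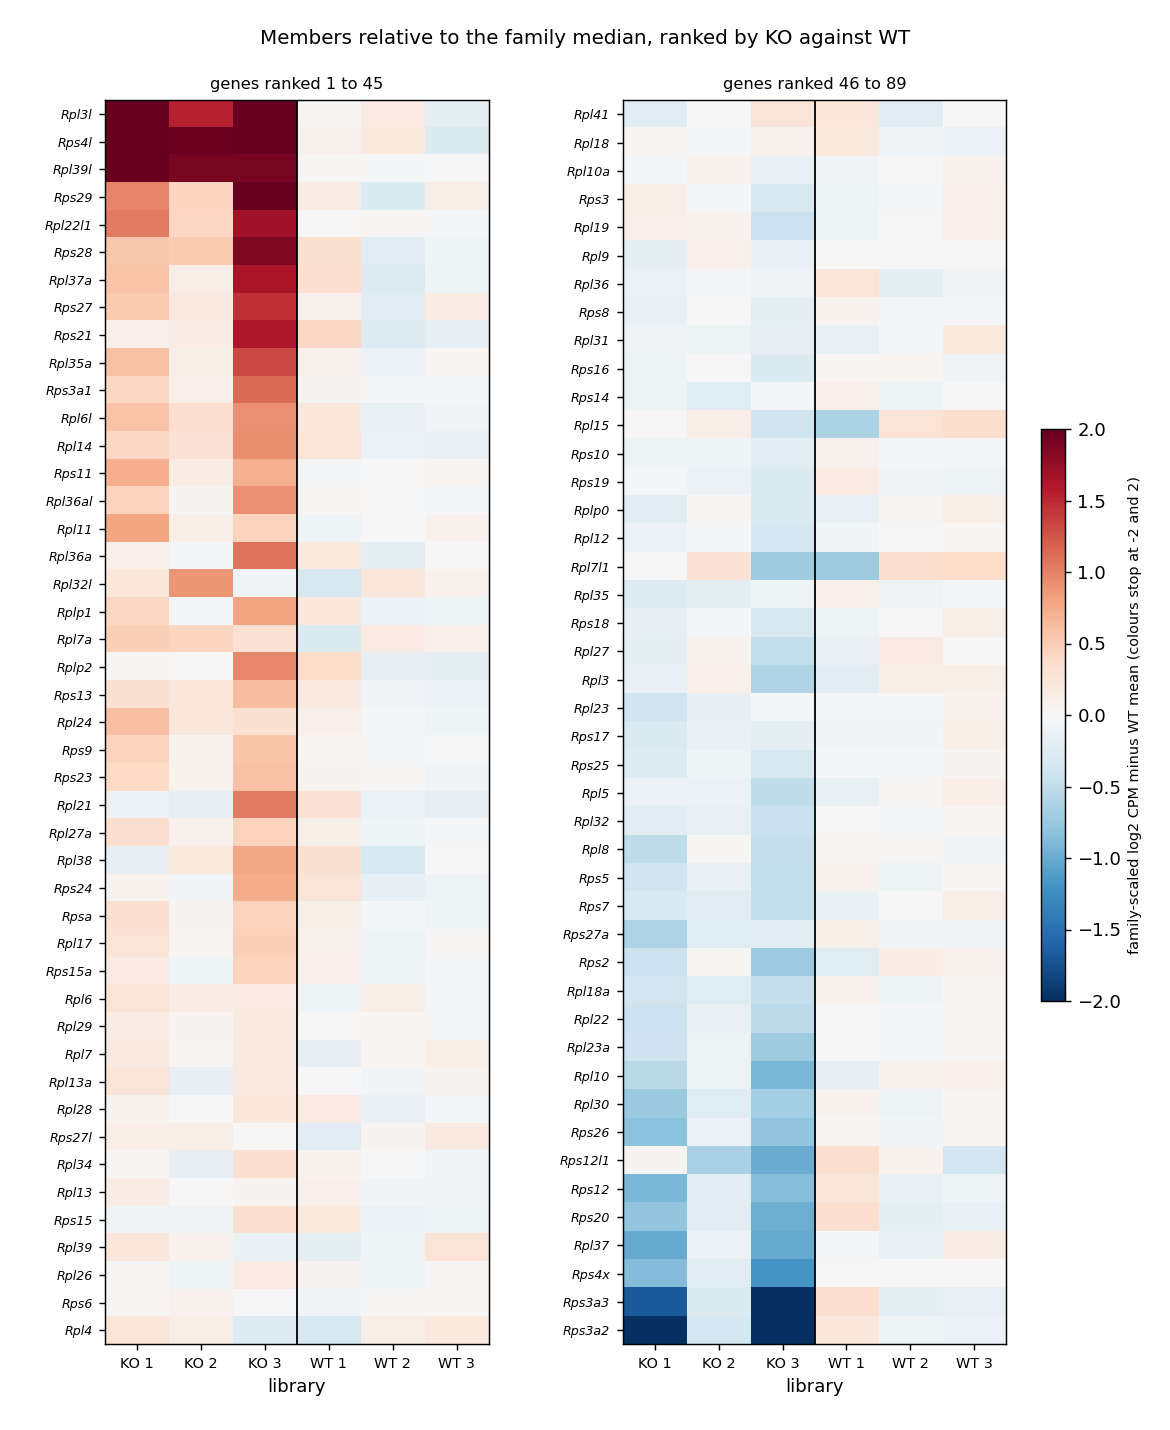
Each row is 1 of the 89 tested members and each column 1 library, KO left of WT. Colour gives the family-scaled log2 CPM minus the WT mean, with members ranked by the KO against WT change, and the strongest colours lie in KO 1 and KO 3.

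The same edgeR test on the family scale called 3 members higher in KO, Rps4l, Rpl3l and Rpl39l, beside 12.7% of all tested genes, and 0 lower, beside 0.0215%. None was called without KO 1 or without WT 1, 1 was called higher without WT 3, and Rps3a2 was called lower without KO 2. The family scaling moved the median log2 fold change of all tested genes to 0.48, against -0.05 with TMM. The shares of 12.7% and 0.0215% carry that shift, so they are not a neutral background for the members. No core member passed, and the smallest edgeR adjusted p among them was 0.141, for Rps29. The values of the core members at the ends of the ranking are therefore given as a description.

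Toward the top of that ranking stood Rps29, Rps28, Rpl37a, Rps27, Rps21 and Rpl35a. Rps29, a zinc-binding protein of the small-subunit head, was at 224, 203 and 882 CPM in KO tumours, against 468, 141 and 180 CPM in WT tumours. Rps28 was at 126, 165 and 579 CPM in KO tumours, against 402, 112 and 119 CPM in WT tumours. Rps21 was at 186, 257 and 979 CPM in KO tumours, against 870, 220 and 228 CPM in WT tumours. In each case KO 3 was the highest of all 6 libraries and WT 1 came next, with the other 4 close together.

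Relative to the family, Rps29 stood at 0.98, 0.43 and 2.08 in KO tumours, against 0.15, -0.27 and 0.13 in WT tumours, a log2 fold change of 1.32 ± 0.54 (SE). Rps28 stood at 0.54, 0.52 and 1.86 in KO tumours, against 0.31, -0.22 and -0.09 in WT tumours, a log2 fold change of 1.10 ± 0.54 with an edgeR adjusted p of 0.237. Rps28 lies beside Kank3 on the other strand with overlapping ends, and Kank3 had 927, 566 and 1151 counts in KO tumours, against 224, 243 and 216 counts in WT tumours. Without strand the reads of the overlap cannot be assigned. The log2 fold changes on the family scale were 0.90 for Rpl37a, which carries a zinc finger, 0.82 for Rps27, another zinc-binding protein, 0.77 for Rps21 and 0.76 for Rpl35a, a large-subunit protein mutated in Diamond-Blackfan anaemia in humans. All 4 were above 1.3 in KO 3 and below 0.6 in KO 1 and KO 2, and without the family scaling their log2 fold changes were 0.23, 0.23, 0.11 and 0.14.

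At the other end, leaving out the processed copies described below, stood Rps4x, Rps20, Rpl37, Rps12, Rps26 and Rpl30. Rps4x, the X-linked gene of a small-subunit protein, was at 695, 1459 and 1031 CPM in KO tumours, against 4761, 1905 and 1842 CPM in WT tumours. Rps12, in the beak of the small subunit, was at 396, 847 and 758 CPM in KO tumours, against 3267, 1009 and 1015 CPM in WT tumours. Rps20, of the small-subunit head, was at 590, 1164 and 952 CPM in KO tumours, against 4779, 1350 and 1362 CPM in WT tumours. For all 3 genes every KO library lay below every WT library, and KO 2 lay nearest to WT.

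Their log2 fold changes were -1.42 ± 0.54 for Rps4x, -1.40 ± 0.59 for Rps12 and -1.47 ± 0.61 for Rps20, with edgeR adjusted p of 0.122, 0.148 and 0.146. Relative to the family, Rps4x stood at -0.87, -0.20 and -1.18 in KO tumours, against 0.01, 0.00 and -0.01 in WT tumours. Rps12 stood at -0.91, -0.21 and -0.85 in KO tumours, against 0.24, -0.15 and -0.09 in WT tumours. Rpl37, a zinc-binding large-subunit protein, stood at -1.01, -0.11 and -1.01 in KO tumours, against -0.02, -0.14 and 0.15 in WT tumours. KO 1 and KO 3, whose family medians differed most from each other, gave close values for Rps12 and for Rpl37.

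Rps26, near the exit of the mRNA channel, was at 390, 836 and 731 CPM in KO tumours, against 2605, 994 and 1026 CPM in WT tumours. Rpl30 was at 338, 637 and 650 CPM in KO tumours, against 2210, 797 and 845 CPM in WT tumours. The groups did not overlap in either gene. Both were at -0.54 on the family scale and at -1.24 without it, and neither passed the edgeR test, with adjusted p of 0.151 for Rps26 and 0.148 for Rpl30.

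The 4 X-linked members did not move together. On the family scale Rps4x was at -0.69 and Rpl10, which joins the large subunit late in its assembly, at -0.49, while Rpl39 was at 0.05 and Rpl36a at 0.47. Rpl5 and Rpl11, which together hold back the ubiquitin ligase Mdm2 when they are free of the ribosome, were at -0.24 and 0.47. Neither difference within these groups was tested. Rps6, the member that the S6 kinases phosphorylate, lay near the family median in every library, between -0.01 and 0.09 in KO tumours and between -0.05 and 0.03 in WT tumours.

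Rpl15 and Rpl7l1 were the members whose level was steadiest over the WT libraries. Rpl15 was at 312, 449 and 430 CPM in KO tumours, against 747, 561 and 579 CPM in WT tumours. Rpl7l1 was at 83.1, 136 and 94.0 CPM in KO tumours, against 191, 159 and 158 CPM in WT tumours. Neither gene's groups overlapped, and WT 1 exceeded WT 2 and WT 3 far less than for the rest of the family. The log2 fold changes were -0.66 ± 0.32 for Rpl15 and -0.70 ± 0.29 for Rpl7l1, with edgeR adjusted p of 0.191 and 0.146. Rpl15 overlaps Nkiras1, on the other strand, which had 935, 983 and 828 counts in KO tumours and 2303, 989 and 966 counts in WT tumours.

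The start regions of the coding members were compared with those of all genes in a RefSeq promoter table on the same build, GRCm38.p6, which held 64 of the 84. The windows run from 60 bases before the annotated start to 20 bases after it, on the gene's strand, and capitals mark the longest pyrimidine run near the start. They are shown for 3 members toward the lower end of the family ranking, and after those for 3 members toward the upper end, as examples chosen after the ranking and the sequences were seen.
Rps12: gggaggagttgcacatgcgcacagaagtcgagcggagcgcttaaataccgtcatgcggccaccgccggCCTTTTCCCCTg
Rps26: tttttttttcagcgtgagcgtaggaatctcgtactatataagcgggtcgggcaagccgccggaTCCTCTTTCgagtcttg
Rpl37: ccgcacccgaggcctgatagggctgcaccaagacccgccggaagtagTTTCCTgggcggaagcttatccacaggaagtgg
Rps27: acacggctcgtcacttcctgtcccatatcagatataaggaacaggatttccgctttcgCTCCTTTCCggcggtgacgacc
Rpl35a: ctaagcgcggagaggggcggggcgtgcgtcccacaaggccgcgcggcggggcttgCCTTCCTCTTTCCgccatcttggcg
Rpl22l1: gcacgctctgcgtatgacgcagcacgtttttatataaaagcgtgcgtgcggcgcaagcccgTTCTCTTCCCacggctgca

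The windows are at chr10:23787190-23787269 on the minus strand for Rps12, chr10:128626487-128626566 on the minus strand for Rps26 and chr15:5116553-5116632 on the plus strand for Rpl37. Those of the upper end are at chr3:90213629-90213708 on the minus strand for Rps27, chr16:33056422-33056501 on the plus strand for Rpl35a and chr3:28805448-28805527 on the plus strand for Rpl22l1. The marked runs were 11, 9 and 6 bases long in the lower 3 and 9, 13 and 10 bases long in the upper 3. Other members at the ends differed from these examples. No run of at least 5 bases was found near the start of Rps4x or Rpl10 at the lower end, and at the upper end the run was 5 bases for Rps28 and Rpl37a and at most 7 for Rps21. Another entry of Rpl35a had no such run. A run of at least 8 pyrimidines between 25 bases before and 20 bases after the start was found in 31 of the 64 members, or 48.4%, and in 20.6% of the 27025 symbols of the table.

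Over the whole 300 bases of the table's entries, on both strands, CTTTCC, a piece of many TOP motifs, was found in 53.1% of members and 29.3% of all symbols. On the sense strand within 25 bases of the start, where a TOP motif would lie, it was found in 17.2% of members and 2.92% of all symbols. The next values are again for the whole 300 bases on both strands. CCGGAAG, a core of ETS factor sites, was found in 40.6% of members and 9.93% of all symbols. GGGCGG, a core of Sp factor sites, was found in 62.5% of members and 38.2% of all symbols. AAGATGGC, a core of YY1 sites, was found in 9.38% of members and 3.19% of all symbols, and CACGTG, the E-box that Myc binds, in 9.38% of members and 8.09% of all symbols. TATAAA, the letters of the TATA box, was found in 10.9% of members and 15.7% of all symbols. Within 25 bases on either side of the start it was found in only 3 of the 64 members, or 4.69%, and in 1.77% of all symbols. That count is too small to compare, and whether any match is a working TATA box was not tested. No overlap between matches of different motifs was removed. These matches describe the letters of the windows only.

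The greatest differences between the groups were among the paralogues and processed copies. Rps4l, Rpl3l and Rpl39l were each higher in every KO library than in every WT library, against the direction of most of the family. Rps4l is annotated as a transcribed processed pseudogene on chromosome 6 at 148354656 to 148355598, and it rose by 2.80 ± 0.70 (SE) on the log2 scale, with an edgeR adjusted p of 0.0426. It was at 22.3, 8.12 and 43.2 CPM in KO tumours, against 6.09, 2.65 and 1.84 CPM in WT tumours. KO 2 was only slightly above WT 1, and both other KO libraries were far above. Rps4l passed the threshold under 6 of 12 alternatives, and with 1 library left out its edgeR adjusted p ran from 0.00517 to 0.151. As a share of the counts of Rps4x it was at 3.21%, 0.556% and 4.19% in KO tumours, against 0.128%, 0.139% and 0.1002% in WT tumours.

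In a stretch of coding sequence shared by Rps4x and Rps4l, from GENCODE M21 transcripts, capitals mark the bases that differ. It is the window of its length with the most differences, so it is not typical of the whole alignment. It is shown because it bears on whether reads of the parent could be counted for the copy.
Rps4x: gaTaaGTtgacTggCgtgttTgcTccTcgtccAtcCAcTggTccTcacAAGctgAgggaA
Rps4l: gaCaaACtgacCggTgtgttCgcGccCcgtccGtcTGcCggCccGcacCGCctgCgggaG

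The stretch covers coding bases 61 to 120 of Rps4x and transcript bases 115 to 174 of Rps4l, with 19 differences. Over the aligned coding length the identity was 80.1%. Rps4l lies within Tmtc1, a gene on the other strand, which had 135, 40 and 62 counts in KO tumours, against 21, 15 and 22 counts in WT tumours. Rps4l itself had 657, 285 and 867 counts in KO tumours, against 223, 93 and 62 counts in WT tumours. Reads of the overlap cannot be assigned to a strand in these libraries.

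Rpl3l, the paralogue of Rpl3 in skeletal and heart muscle, was at 5.37, 1.37 and 10.1 CPM in KO tumours, against 1.28, 0.57 and 0.417 CPM in WT tumours. As with Rps4l, KO 2 was barely above WT 1. Its log2 fold change was 2.88 ± 0.82 with an edgeR adjusted p of 0.0602, and on the family scale 3.55 ± 0.82 with an edgeR adjusted p of 0.0178. The summed level of 6 skeletal muscle markers was 905, 287 and 2101 CPM in KO tumours, against 190, 99.3 and 87.3 CPM in WT tumours. Of the 6, 5 passed the edgeR test as higher, beside 11.2% of all tested genes. The order of the KO libraries was the same for the marker sum and for Rpl3l. That order was not particular to muscle: the summed endothelial and adipocyte markers and Rps4l had it too. The sums for leukocytes and fibroblasts did not. The part of muscle RNA in the difference was not tested.

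Rpl39l, a paralogue of Rpl39 known from male germ cells in mice, was at 10.2, 4.84 and 6.68 CPM in KO tumours, against 3.63, 1.40 and 1.40 CPM in WT tumours. The groups did not overlap, and KO 2 was again the lowest of the KO libraries. Its log2 fold change was 1.76 ± 0.55 with an edgeR adjusted p of 0.0794, and on the family scale 2.61 ± 0.69 with an edgeR adjusted p of 0.0268. The germ cell markers summed to 1.70, 1.17 and 0.299 CPM in KO tumours, against 2.87, 1.48 and 0.863 CPM in WT tumours, and of the 4 markers Tnp1 was at 0 in all libraries.

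Rpl22l1, which can take the place of Rpl22, was at 49.4, 42.1 and 142 CPM in KO tumours, against 90.4, 36.4 and 34.2 CPM in WT tumours. The groups overlapped on that scale because of WT 1. As a share of the counts of Rpl22 it was at 21.1%, 11.1% and 35.1% in KO tumours, against 7.57%, 7.87% and 7.21% in WT tumours, without overlap. Its log2 fold change was 0.53 ± 0.57, or -0.27 without KO 3, and on the family scale 1.14 ± 0.53 with an edgeR adjusted p of 0.204. The other tested paralogues did not pass on the family scale, with no edgeR adjusted p below 0.595. Rps27l, which p53 induces, had a log2 fold change of 0.08 there. Rpl36al, the autosomal copy of Rpl36a, was at 0.52, and at 0.92 in KO 3. Rpl7l1 was at -0.16, and at -0.71 in both KO 3 and WT 1.

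**Figure D3:**
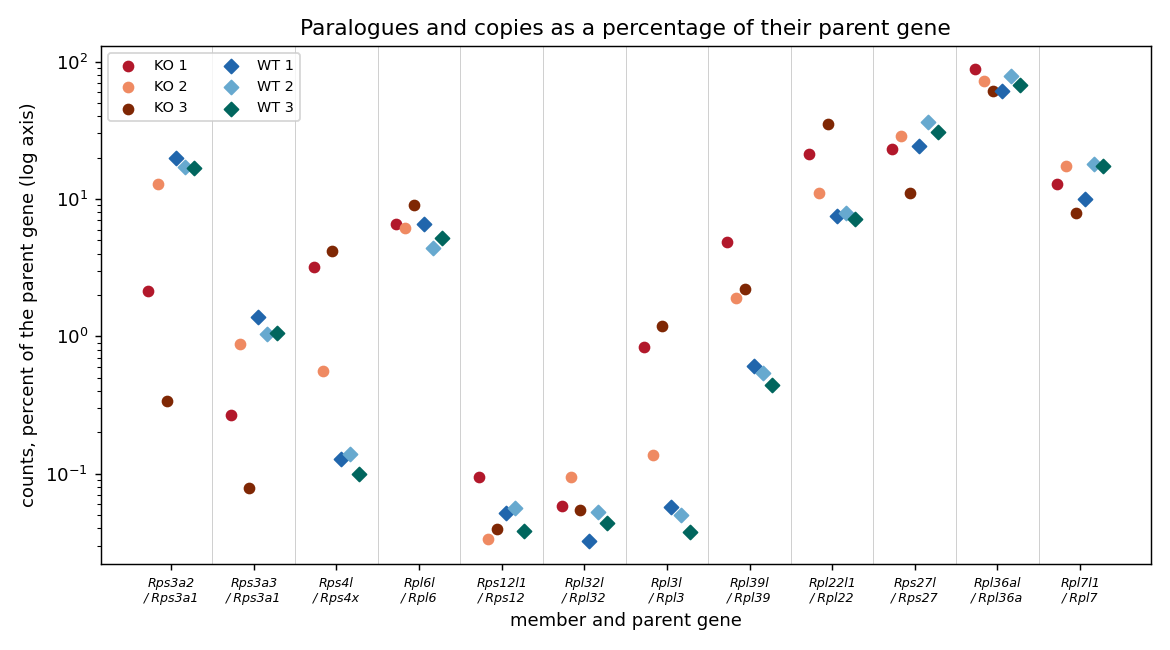
Points give the counts of a paralogue or processed copy as a percentage of the counts of its parent gene in each library, on a log axis, with KO circles left of WT diamonds. Rps3a2 was at 2.13% and 0.341% of Rps3a1 in KO 1 and KO 3, against 16.7% to 19.8% in WT tumours, while Rps4l, Rpl3l and Rpl39l lay above all WT libraries.

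Among the processed copies, Rps3a2 on chromosome 14 and Rps3a3 on chromosome 13 had the lowest values relative to the family. Their parent Rps3a1, on chromosome 3, encodes a small-subunit protein that binds initiation factors. The copies are shown against it, with the differing bases in capitals, because so few bases tell them apart.
Rps3a1: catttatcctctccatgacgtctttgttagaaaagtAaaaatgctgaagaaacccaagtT
Rps3a2: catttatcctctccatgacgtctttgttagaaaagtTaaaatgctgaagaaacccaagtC
Rps3a1: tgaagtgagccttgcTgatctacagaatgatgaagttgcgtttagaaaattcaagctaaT
Rps3a3: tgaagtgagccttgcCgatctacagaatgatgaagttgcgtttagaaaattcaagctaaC

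The upper pair covers bases 609 to 668 and the lower pair bases 201 to 260 of the coding sequence. For each copy no window of that length held more differences. Over 792 bases Rps3a2 had 4 mismatches to Rps3a1, an identity of 99.5%, and Rps3a3 had 8 mismatches. How reads that match several places were counted is not stated in the sources used here, so the split of counts between the 3 genes is uncertain.

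Rps3a2 was at 16.3, 106 and 7.93 CPM in KO tumours, against 441, 144 and 137 CPM in WT tumours. Rps3a3 was at 2.04, 7.21 and 1.84 CPM in KO tumours, against 30.8, 8.80 and 8.72 CPM in WT tumours. Both copies were lowest in KO 3 and KO 1, and KO 2 was close to WT 2 and WT 3. The parent Rps3a1 was at 764, 819 and 2323 CPM in KO tumours, against 2230, 848 and 823 CPM in WT tumours, and was thus highest in the library where the copies were lowest.

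The counts of Rps3a2 were 2.13%, 12.9% and 0.341% of those of Rps3a1 in KO tumours, against 19.8%, 17.0% and 16.7% in WT tumours. For Rps3a3 the shares were 0.267%, 0.880% and 0.0794% in KO tumours, against 1.38%, 1.04% and 1.06% in WT tumours. The 3 WT libraries agreed closely here, WT 1 included, while the KO libraries differed by a wide margin. The log2 fold changes were -2.47 ± 0.97 for Rps3a2 and -2.11 ± 0.74 for Rps3a3, with edgeR adjusted p of 0.132 and 0.103. With KO 2 left out both passed, with log2 fold changes of -4.33 for Rps3a2 and -3.07 for Rps3a3 and edgeR adjusted p of 0.00436 and 0.0132.

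Sox2, a transcription factor of neural and glioma stem cells, is 1 of the glioma markers. It was at 18.6, 147 and 4.74 CPM in KO tumours, against 205, 228 and 227 CPM in WT tumours. Its order of KO libraries was that of the share of Rps3a2. Nes, Olig2 and Gfap of the same marker list had that order too, while S100b, Vim, Fabp7 and Cd44 did not. The relation of these genes to Rps3a2 was not tested. Rps3a3 also lies within Pde4d, on the same strand, which had 407, 193 and 148 counts in KO tumours, against 19, 85 and 68 counts in WT tumours, the opposite direction.

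Of the 12 paralogues and copies set against their parent, 7 had groups that did not overlap: Rps3a2, Rps3a3, Rps4l, Rpl32l, Rpl3l, Rpl39l and Rpl22l1. An exact two-sided permutation test on the log2 shares gave p = 0.1 for each, the smallest that 3 against 3 libraries allow, and 0.171 after adjustment over the 12 pairs. These shares do not depend on how the libraries are scaled. How often other pairs of genes separate in this way was not computed. Of all tested genes taken singly on log2 CPM, 19.5% had all KO libraries below all WT libraries and 24.6% had all above. Rpl32l rested on 6, 16 and 6 counts in KO tumours and 18, 11 and 9 counts in WT tumours. Rps12l1, whose sequence matches the coding bases of Rps12 at 100%, had 11, 10 and 6 counts in KO tumours and 62, 20 and 13 counts in WT tumours. Rpl6l, with an identity of 98.7% to Rpl6, was at 6.55%, 6.10% and 8.98% of its parent in KO tumours, against 6.53%, 4.44% and 5.22% in WT tumours, which overlapped.

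Ribosomal protein mRNAs are short, and other genes with short merged exons varied between the libraries in a like way. Among non-member genes with merged exons under 1000 bases and a mean log2 CPM of at least 5, 128 genes, WT 1 exceeded the mean of WT 2 and WT 3 by a median of 1.24. That difference was 0.88 for 1000 to 2000 bases, 0.36 for 2000 to 4000, -0.07 for 4000 to 8000 and -0.42 for 8000 bases or more. In the shortest class the medians, as differences from the WT mean, were -0.61, -0.43 and 0.17 in KO tumours, against 0.83, -0.40 and -0.42 in WT tumours, the same order of libraries as for the members. Many members themselves have merged exons above 1000 bases, such as Rpl12 with 3598 and Rps24 with 6256 bases. The shortest class is therefore not matched to the members on this measure. Their own median excess of WT 1 was 1.41, above that of the classes of 1000 to 2000 and 2000 to 4000 bases. The part of length in the members' differences was not tested.

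**Figure D4:**
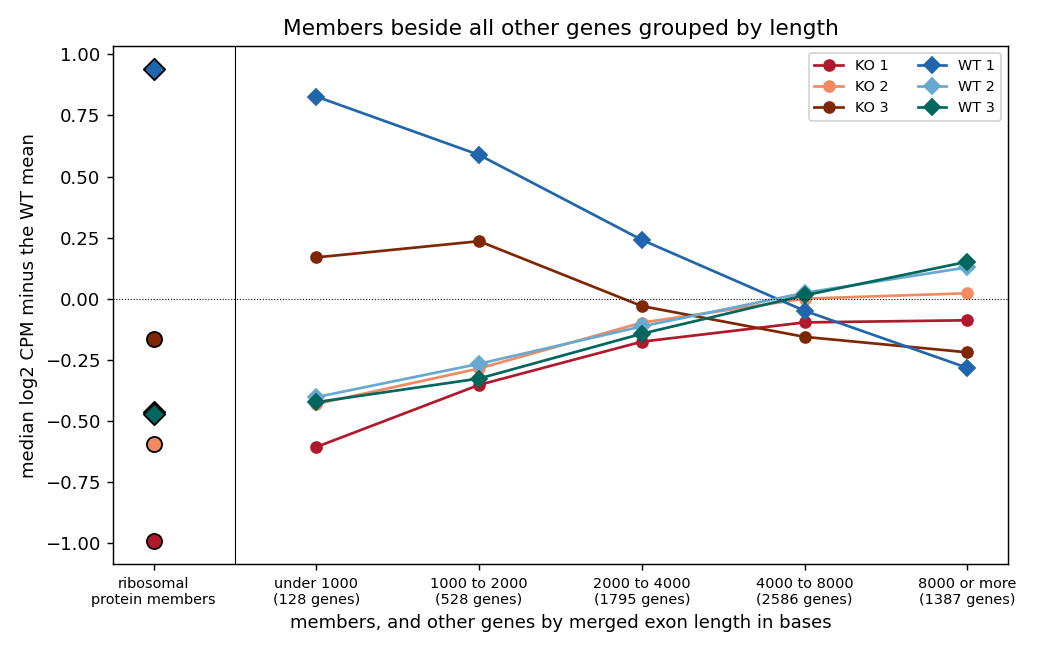
The y axis gives the median log2 CPM minus the WT mean of the ribosomal protein members (left of the line) and of all other genes by class of merged exon length in bases, with KO circles listed before WT diamonds. WT 1 falls steadily with length, and in the shortest class it lies at 0.83 beside 0.94 for the members. Many members have longer merged exons than that class.

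Within the family, coding length was related to the deviation from the family median in some libraries. Across 77 coding core members Pearson's r was -0.34 and Spearman's rho -0.29 in KO 3, and -0.55 and -0.53 in WT 1, where shorter members stood higher. For merged exon length, the measure of the classes above, r was -0.12 and rho -0.18 in KO 3, and -0.03 and -0.11 in WT 1. For transcript length r was -0.31 and rho -0.29 in KO 3, and -0.14 and -0.39 in WT 1. The relation thus depended on the measure of length. The values that follow are for coding length. In KO 1 and KO 2 r was -0.01 and 0.05. For the KO against WT change relative to the family, r was -0.19 and rho -0.13, and the short members Rpl41 and Rpl39 lay at 0.02 and 0.05. The 25 members with a coding sequence under 400 bases had medians of 0.02, -0.03 and 0.33 in KO tumours, against 0.15, -0.15 and 0.00 in WT tumours, but ranged from -1.01 to 2.08 in KO 3. Rpl37 and Rps12 lay at the low end of that class and Rps29 and Rps28 at the high end. These points share libraries and genes are not independent replicates.

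Other parts of the translation machinery were described by lists, none of which is a sample of genes chosen without sight of earlier results. Among ribosomal genes that the naming rule leaves out, Rack1, a scaffold on the small-subunit head, was at 742, 1194 and 860 CPM in KO tumours, against 2777, 1470 and 1490 CPM in WT tumours. Its log2 fold change was -1.04 ± 0.43 with an edgeR adjusted p of 0.143. Fau, a ubiquitin-like fusion to a small-subunit protein, was at 0.19 ± 0.65, and it was highest in KO 3, as Rps29 was.

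Of 16 other mRNAs with a TOP motif 0 passed the edgeR test in either direction, beside 11.2% of all tested genes called higher and 0.226% called lower. All KO libraries lay below all WT libraries in 13, beside 19.5% of all tested genes, and the median log2 fold change was -0.88, or -0.57 without WT 1. Among them Eif3e, a subunit of the initiation factor that binds the small subunit, was at -1.05 ± 0.34 with an edgeR adjusted p of 0.0858. As differences from the WT mean their medians were -1.23, -0.47 and -0.86 in KO tumours, against 0.38, -0.20 and -0.19 in WT tumours. KO 3 lay well below WT for this list, where the ribosomal protein members of the same library did not.

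Ribosome biogenesis and RNA polymerase I genes gave a similar picture. Of 39 tested, 0 passed in edgeR, beside 0.226% of all tested genes called lower. All 39 had a log2 fold change below 0, and 27 had all KO libraries below all WT libraries, beside 19.5% of all tested genes. The median was -0.96, or -0.82 without WT 1, and by library it was -1.52, -0.24 and -1.30 in KO tumours, against 0.18, -0.05 and -0.11 in WT tumours. Nhp2, a protein of the particles that guide pseudouridine formation in ribosomal RNA, was at 42.5, 135 and 64.5 CPM in KO tumours, against 412, 185 and 176 CPM in WT tumours. KO 2 was the KO library nearest to WT, as for the 17 proliferation genes, whose medians were -1.92, -0.37 and -2.72 in KO tumours, against 0.05, -0.09 and 0.02 in WT tumours.

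The mitochondrial ribosome, a separate machine encoded by 78 tested nuclear genes, had a median log2 fold change of -0.50, or -0.16 without WT 1, and 0 genes passed in edgeR. A list of 35 short nuclear genes of the respiratory chain, taken for their length, had medians of -0.72, -0.59 and 0.38 in KO tumours, against 0.93, -0.47 and -0.44 in WT tumours, and 0 passed. Its order of libraries was that of the ribosomal protein members, apart from WT 2 and WT 3, which lay close together. For 28 translation initiation factors the median log2 fold change was -0.51 and 0 passed. Beside these lists, 11.2% of all tested genes were called higher and 0.226% lower.

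**Figure D5:**
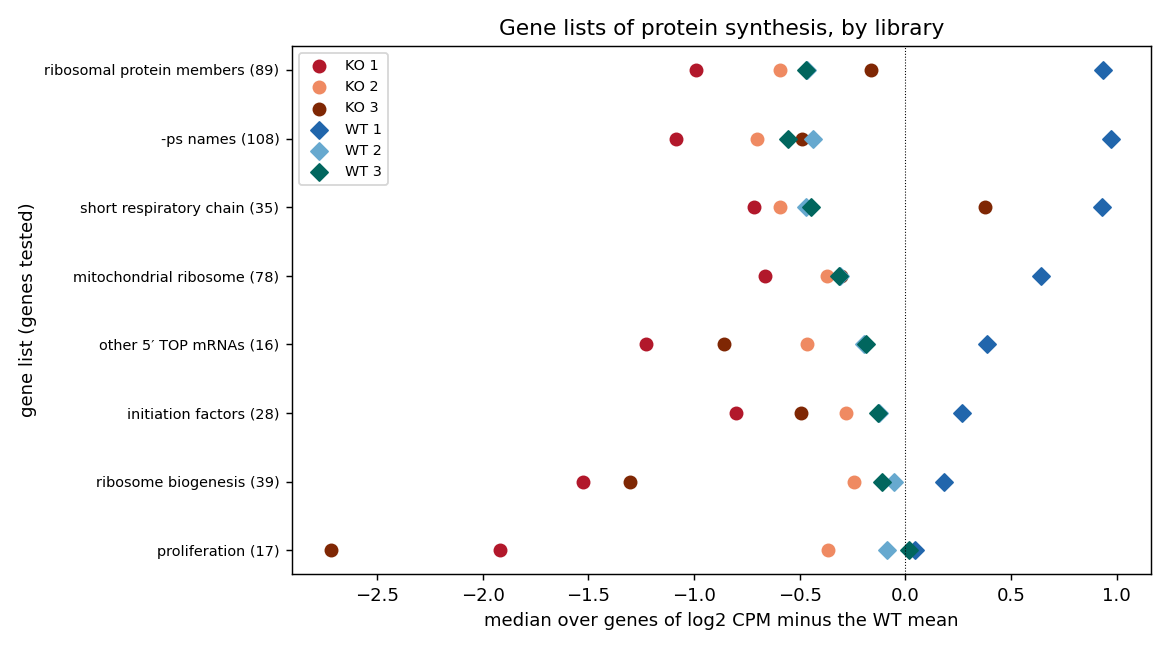
Each row is a gene list with the number of tested genes, and each point the median of log2 CPM minus the WT mean in 1 library (x axis), with KO circles and WT diamonds. WT 1 lies far right for the short genes of the upper rows, and KO 1 and KO 3 lie far left for biogenesis and proliferation genes.

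Of 12 tested genes of growth signalling to ribosomal proteins 1 passed as higher, beside 11.2% of all tested genes. That count does not set the list apart. Rps6kb2, an S6 kinase, was at 105, 39.4 and 103 CPM in KO tumours, against 36.0, 20.6 and 17.9 CPM in WT tumours. It rose by 1.73 ± 0.45 (SE) on the log2 scale with an edgeR adjusted p of 0.0477. Myc, which drives transcription of ribosomal protein and biogenesis genes, was at 24.6, 115 and 18.7 CPM in KO tumours, against 140, 153 and 130 CPM in WT tumours. All KO libraries lay below all WT libraries, with KO 2 close to WT, and the log2 fold change of -1.42 ± 0.65 did not pass in edgeR, with an adjusted p of 0.176.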

How the data were processed

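The authors deposited 1 table of raw counts per gene symbol for 6 libraries, with merged exon lengths, in the layout of featureCounts per the file headers. The submitters' processing notes name mm10 and DESeq2. The aligner, strand setting and counting of reads with several matches are not stated in the sources used here. Library totals were 24369359 to 40574093 counts. Replicate numbers follow accession order and only name libraries.

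KO was compared with WT over all genes with edgeR 4.0.16 in R 4.3.3 (quasi-likelihood F test, two-sided, TMM, filterByExpr, group as the only term), with Benjamini-Hochberg adjustment over 18621 genes and a threshold of 0.05. CPM uses TMM-scaled library sizes, log2 CPM a prior count of 2, and the SE was obtained from the size of the log2 fold change and the root of its F value. A second fit scaled each library by the median ratio of the tested members to their geometric mean. Alternatives were DESeq2 1.42.0, limma-voom 3.58.1, other scalings and filters, and leaving out each library. The code was tested on simulated data.

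The members and all lists were chosen with earlier results of these data known. Named members were the stalk proteins, Rpsa and the paralogues. Leaving out the paralogues, the 6 at each end of the log2 fold change minus the family median were named too. So were those past a threshold, and those with the highest or lowest level or WT spread. Of other lists, genes with the smallest p were named. Other members (Rps3a1, Rps26, Rpl30, Rpl37, Rpl5, Rpl11, Rps6 and the X-linked genes) and overlapping genes were added after their values were seen. Sequences are from RefSeq GRCm38.p6 promoters and GENCODE M21, which matched 52905 symbols. A result for 1 gene of another list is not reported here.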

Additional observations from a re-analysis of the deposited data

How the results depend on the processing

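No paired analysis was possible because the labels give no replicate numbers that the groups share. Members called higher in KO (1) came to 2 without the count filter, 0 with limma-voom and 3 with DESeq2, and to 0 to 3 with 1 library left out. Members called lower (0) came to 2 without the filter, 11 with DESeq2, and 0 to 5 with 1 library left out. The highest counts came without KO 2, and 0 members were called without any other single library. Over all genes, 2083 were called higher, 988 with limma-voom, 3266 with DESeq2, and 0 to 4449 with 1 library left out; 42 were called lower, 24 with library totals alone, 476 without the filter, 1244 with DESeq2, and 0 to 3629 with 1 library left out. On the family scale the count was 0 to 3 higher and 0 to 1 lower with 1 library left out. The family's median log2 fold change stayed below 0, from -1.01 to -0.11 with 1 library left out.

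With library totals alone the log2 fold change was -0.029 for Rps21 and -0.0096 for Rpl35a. With 1 library left out in turn the log2 fold change changed sign for 37 of the 89 tested members, 29 of them without WT 1. Of the 28 members named by rule, 14 changed sign: Rpsa ran from -0.85 to 0.24, Rplp1 from -0.89 to 0.47, Rplp2 from -1.11 to 0.58, Rpl22l1 from -0.27 to 1.12, Rpl36al from -0.75 to 0.48, Rps21 from -1.03 to 1.06, Rpl35a from -0.67 to 0.78, Rps27 from -0.67 to 0.86, Rpl37a from -0.78 to 1.10, Rps28 from -0.58 to 1.30, Rps29 from -0.34 to 1.42, Rpl41 from -1.14 to 0.069, Rps15 from -1.12 to 0.10 and Rpl32l from -0.53 to 0.13. The cause was not tested. Depth limits Rpl10l, Rpl32l and Rps12l1.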

Other observations

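The table also lists symbols of ribosomal protein pseudogenes ending in -ps, of which 108 passed the count filter. They took 0.0906%, 0.143% and 0.146% of counts in KO tumours, against 0.343%, 0.149% and 0.144% in WT tumours, so KO 3 lay between WT 2 and WT 3. In edgeR 0 were called higher and 1 lower in KO, beside 11.2% and 0.226% of all tested genes. The median log2 fold change was -0.85. Relative to the WT mean their medians were -1.08, -0.70 and -0.49 in KO tumours, against 0.98, -0.44 and -0.56 in WT tumours. As for the members, WT 1 was highest and KO 1 lowest.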
